A study of Rattus norvegicus with 21 samples.

Results

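The granins were examined in islets of Langerhans from Lewis rats as 7 genes chosen by name, Chga, Chgb, Scg2, Scg3, Scg5, Vgf and Pcsk1n, of the 28914 genes in the deposited count table. All 7 had a row in the table, and 6 had enough counts to be tested between groups. The exception was Vgf, whose counts were too few. The study compared 11 rats from which 90% of the pancreas had been removed (PX) with 10 sham-operated rats (sham), followed for 4 weeks after surgery, to ask how hyperglycemia affects islet cells. Each library was made from the polyA RNA of 1 animal's islets with a directional kit. All animals were of the same strain, and no drug, transgene or allele is named for either group. Each label carries a BG value, called an average before sacrifice and given with no unit, which ran from 82 to 104 in sham and from 101 to 174 in PX. Animals are named below by group and animal number, as in PX 65. The labels do not say whether glucose was normal at any earlier time, and the islets of PX rats are those of the small part of the pancreas left by surgery.

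Granins are acidic secretory proteins packed with hormones into the dense-core granules of endocrine cells and neurons. Chromogranins and secretogranins aggregate in the trans-Golgi network in the presence of calcium and low pH, which helps to gather prohormones into forming granules, and several of them are themselves cut into peptides. Other members act on the enzymes that cut prohormones: Scg5 encodes the chaperone of the convertase made by Pcsk2, and Pcsk1n encodes an inhibitor of the convertase made by Pcsk1. In islets, granins are found in beta cells and in the other hormone cells.

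Promoter sequences from RefSeq, build GRCr8, were found for 6 of the 7 genes. None was found for Chga, so the motifs below were not searched in it. The stretches of the Scg2 and Vgf promoters printed here are shown because, among the 6, only these held the full cyclic AMP response element TGACGTCA in the 250 bases before the start, and the levels of these members in the islets lay far apart. Both are written 5′ to 3′ on the gene's strand, with the element in capitals. In Scg2, at chr9:88256894-88257015 on the minus strand, the later capitals mark the reverse complement of TTCAGCACC, the left part of the element bound by the repressor REST. The Vgf stretch lies at chr12:25277077-25277136, also on the minus strand.
Scg2: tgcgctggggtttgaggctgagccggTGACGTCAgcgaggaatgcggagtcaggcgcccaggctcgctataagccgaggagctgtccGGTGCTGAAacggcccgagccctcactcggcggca
Vgf: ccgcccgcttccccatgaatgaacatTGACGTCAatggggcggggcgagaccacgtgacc

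The element lay 123 to 116 bases before the start in Scg2 and 90 to 83 bases before it in Vgf. On either strand, TGACGTCA was present in 1.59% of all 33469 promoters over the same 250 bases. The shorter TGACGT, which lies within it, was held by 6.95% of promoters and, among the members searched, also by Scg2 and Vgf alone. The shorter core TGACG was held by Scg2, Scg3, Scg5 and Vgf, and by 18.2% of promoters. Among the members searched, TTCAGCACC was found in Scg2 only, 62 to 54 bases before the start on the opposite strand. It was present in 0.305% of promoters. A GC box, GGGCGG, was found in Chgb, Pcsk1n, Scg5 and Vgf and in 30.5% of promoters, the E-box CAGATG in Chgb and Scg5 and in 14.0%, and TATAAA in Vgf and in 12.9%. These matches describe letters in a window, and binding was not measured.

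The libraries held 4001908 to 13187959 counts each. The hormone genes Ins1, Ins2, Iapp, Gcg, Sst and Ppy together took 10.1% to 19.2% of the counts in sham and 3.88% to 19.8% in PX, so the islet label was borne out in every library, with PX 65 the lowest. Digestive enzyme and other acinar markers, which come from the exocrine pancreas, took 10.8% ± 9.38 (SD, n = 10) of counts in sham and 19.9% ± 12.2 (SD, n = 11) in PX, and 49.3% in PX 65. All 15 macrophage markers and all 12 mesenchymal markers were higher in PX in the test described below, in which 14.9% of all genes were. The 5 of 27 tested acinar markers that were higher are near that share, but 0 were lower. The median log2 fold change of the 27 was 1.32, against -0.040 over all genes. Also higher were 5 of 7 tested duct markers, 4 of 7 endothelial markers and 2 of 7 neural and Schwann cell markers, with 0 lower in each list. Of tested hormone cell markers, 3 of 9 were lower for beta cells, 2 of 6 for alpha cells and 2 of 3 for delta cells, and 1, 1 and 0 were higher, beside 16.2% of all genes lower. Both groups were divided by animal number into runs that differed in acinar content. In sham it was 0.644% to 6.04% in numbers 21 to 24 and 73 to 74 and 13.1% to 23.8% in numbers 46 to 50. In PX it was 6.24% to 16.5% in numbers 36 to 44 and 17.3% to 49.3% in numbers 57 to 70. Sham 21 to 24 and 73 to 74 are not consecutive and were joined as 1 run. Both were poor in acinar markers, so the sham difference in acinar content follows in part from that joining. Each run held animals of 1 group only, and the labels do not say what the runs are.

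Chga, Chgb, Scg2, Scg3 and Scg5 were abundant islet transcripts, and Pcsk1n and Vgf were not. Levels between genes were compared as RPKM, that is counts scaled both to library size and to the deposited gene length, averaged over the 21 libraries. Scg2, a secretogranin that is the precursor of secretoneurin, stood at 593 ± 142 (SD, n = 21) RPKM and Scg5 at 585 ± 134. Scg3, a secretogranin that binds Chga and the granule membrane, followed at 320 ± 49.5, Chga at 299 ± 60.3 and Chgb at 100.05 ± 36.1. Pcsk1n, at 7.14 ± 2.79 RPKM, and Vgf, the precursor of several neuropeptides, at 0.245 ± 0.190, lay far below.

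The order of these RPKM levels was partly unresolved. Scg2 exceeded Scg5 in 12 of 21 libraries, with a mean log2 ratio of 0.012 ± 0.47 (SD), and Scg3 exceeded Chga in 14 of 21, with a mean log2 ratio of 0.11 ± 0.41 (SD). Neither of these neighbours differed beyond the spread over libraries. Scg5 was above Scg3, Chga above Chgb, Chgb above Pcsk1n and Pcsk1n above Vgf in 21 of 21 libraries.

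No granin passed the test between PX and sham. Values within a gene are given as CPM, counts scaled to a common library size, with the trimmed mean of M values (TMM) correcting that size, and the test was edgeR's quasi-likelihood test with Benjamini-Hochberg adjustment over 13136 genes, at a threshold of 0.05. In that fit 16.2% of genes were lower in PX, 14.9% were higher and 31.1% were called in either direction. Of the 6 granins tested, 0 were called, and 0 had an unadjusted p under 0.05 by edgeR, by DESeq2 or by limma voom. Over all genes, 42% had an unadjusted p under 0.05 by edgeR. With library totals in place of TMM factors 1 had an unadjusted p under 0.05, Pcsk1n. With limma voom's quality weights 1 was called, Chgb. TMM factors ran from 0.916 to 1.27 in sham and from 0.359 to 1.17 in PX, with a PX median of 0.998. The lowest was that of PX 65, whose CPM values are raised accordingly over its share of counts. The groups overlapped for all 7 granins, and 1.7% of genes tested had groups that did not overlap. The median log2 fold change was 0.029 over the 6 granins and -0.040 over all genes. Since the samples are whole islets, fewer cells of a type and less RNA per cell cannot be told apart.

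**Figure D1:**
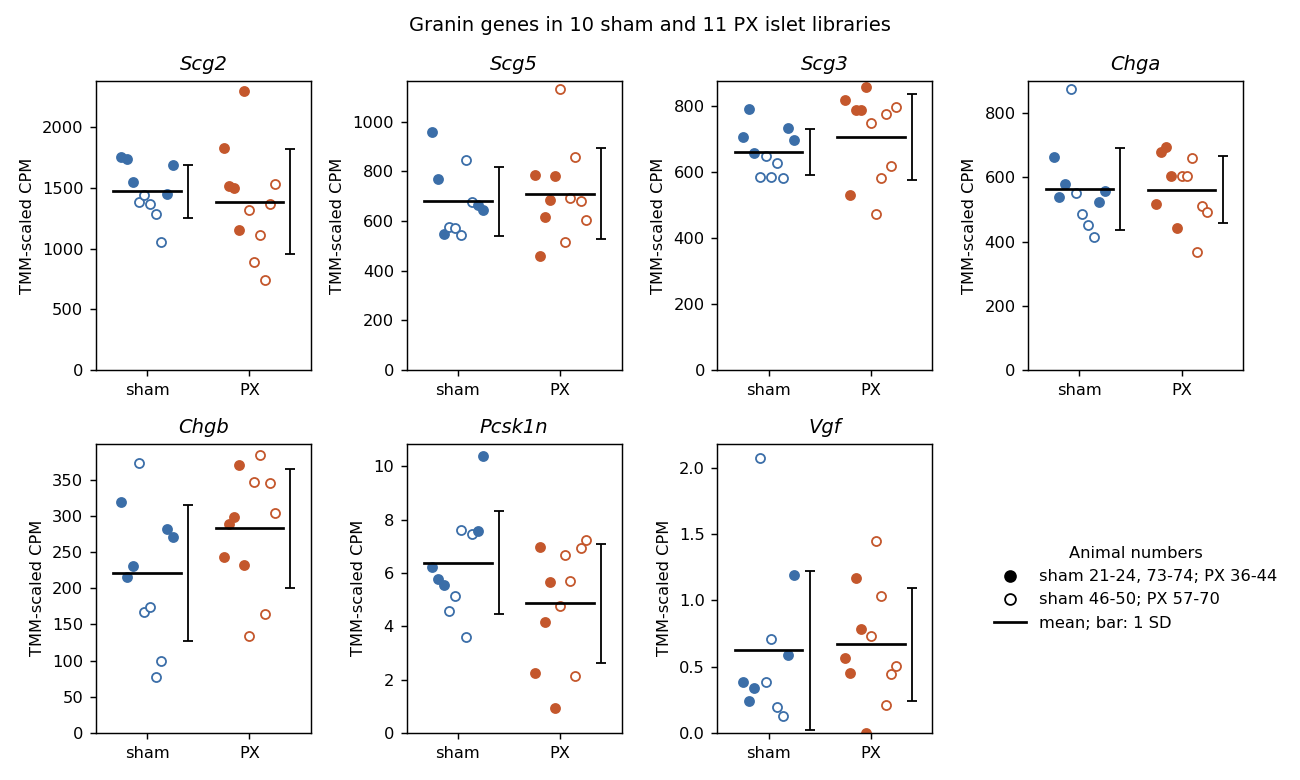
Levels of the 7 granins in each library, in TMM-scaled CPM on linear axes. Points are the 10 sham and 11 PX animals, horizontal lines are group means and error bars are SD. The groups overlap in every panel, and the widest spread among the abundant members is that of Chgb, from 77.1 to 384 CPM.

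Chga, chromogranin A, a major soluble granule protein and the precursor of several peptides, had nearly the same mean in both groups. The deposited table places it on chromosome 6 from 126434226 to 126445568 on the plus strand. The build of these and the following gene positions is not given in the sources used here. Its level ran from 415 through a median of 544 to 875 CPM in sham and from 369 through 604 to 695 CPM in PX. The highest value of all was that of sham 46 and the lowest that of PX 65, and the other animals of both groups were intermixed. The log2 fold change of PX against sham was -0.0059 ± 0.13 (SE), and its 95% interval corresponds to a ratio of 0.831 to 1.19 (edgeR adjusted p = 0.978). Its sign turned in several alternatives: without sham 46 it was 0.14, and without PX 44, PX 65 and sham 46 it was 0.23 (edgeR adjusted p = 0.0646), a set of libraries chosen after seeing the data.

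Chgb, chromogranin B, the second soluble chromogranin, had the largest positive difference of the 6 and the widest spread among the 5 abundant members. It lies on chromosome 3 from 125428260 to 125441594. Sham values were 77.1, 223 and 373 CPM (lowest, median, highest), and PX values 133, 299 and 384 CPM. Sham 49 and sham 50, at 77.1 and 99.5 CPM, were below every PX animal, while 9 of 11 PX animals were above the sham median. The mean was 221 ± 94.1 CPM (SD, n = 10) in sham and 283 ± 82.0 CPM (SD, n = 11) in PX, which did not pass the test: the log2 fold change was 0.36 ± 0.23 (SE), and the 95% interval of the ratio ran from 0.916 to 1.79 (edgeR adjusted p = 0.254). Chgb was called in 2 alternatives. Its log2 fold change was 0.53 with limma voom's quality weights (adjusted p = 0.0308) and 0.63 without PX 44, PX 65 and sham 46 (edgeR adjusted p = 0.0496).

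The SD of Chgb's log2 CPM within groups was 0.61, against a median of 0.30 over 8748 tested genes of at least 10 CPM. By the same measure Scg2 was at 0.36, Scg5 at 0.32, Chga at 0.29 and Scg3 at 0.23. Among sham animals, Chgb was 216 to 319 CPM in numbers 21 to 24 and 73 to 74, the libraries poor in acinar markers, and 77.1 to 373 CPM in numbers 46 to 50. The part of acinar content in this spread was not tested.

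Scg2 ran from 1058 through 1446 to 1752 CPM in sham and from 744 through 1366 to 2303 CPM in PX. The gene lies on chromosome 9 from 85237458 to 85243001 on the minus strand. The PX values spread beyond those of sham at both ends: PX 44 and PX 36, at 2303 and 1831 CPM, were above all sham animals, and PX 65 and PX 58, at 744 and 895 CPM, were below all of them. The log2 fold change was -0.084 ± 0.15 (SE), with a 95% interval of the ratio from 0.757 to 1.18 (edgeR adjusted p = 0.704). In a fit that held the acinar score as a term it was 0.12.

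Scg2 was lower on average in the run of animal numbers richer in acinar markers. The runs overlapped in PX, and in sham they were parted only by the gap between 1444 and 1448 CPM. In sham it was 1448 to 1752 CPM in numbers 21 to 24 and 73 to 74 and 1058 to 1444 CPM in numbers 46 to 50. In PX it was 1157 to 2303 CPM in numbers 36 to 44 and 744 to 1530 CPM in numbers 57 to 70. The sham runs were also separate for Scg3, at 658 to 790 and 583 to 649 CPM. These differences moved with the acinar percentages given above, and the part of acinar content in them was not tested. No test compared the runs, and the share of all genes that part the sham runs is not given here.

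Scg3, on chromosome 8 from 82582352 to 82641536, varied least among the abundant members. Its lowest, median and highest levels were 583, 653 and 790 CPM in sham and 474, 776 and 856 CPM in PX. The PX values reached further both ways, with PX 58 the lowest and PX 44 the highest of all animals. The log2 fold change was 0.094 ± 0.11 (SE), and the 95% interval of the ratio, 0.917 to 1.24, was the narrowest of the 6 (edgeR adjusted p = 0.524).

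Scg5, on chromosome 3 from 105235050 to 105279462, ran from 544 through 655 to 957 CPM in sham and from 458 through 683 to 1130 CPM in PX. PX 57 was the highest animal and PX 37 the lowest. The log2 fold change was 0.063 ± 0.14 (SE), and the 95% interval of the ratio was 0.857 to 1.27 (edgeR adjusted p = 0.755). Pcsk2, whose product Scg5 chaperones, had 3626 CPM in sham and 3099 CPM in PX on average and was not called either (log2 fold change -0.23 ± 0.15 (SE), edgeR adjusted p = 0.272). Pcsk2 was named for this pairing after its values were seen.

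Pcsk1n, on the X chromosome from 15324400 to 15327684, was measured from 10 to 65 counts a library. It ran from 3.59 through 5.996 to 10.4 CPM in sham and from 0.953 through 5.66 to 7.23 CPM in PX. Sham 74 was the highest animal, and PX 44, PX 65 and PX 36 the 3 lowest. The log2 fold change was -0.40 ± 0.27 (SE), with a 95% interval of the ratio from 0.518 to 1.11 (edgeR adjusted p = 0.268). It was -0.63 with library totals (unadjusted p = 0.0486, adjusted p = 0.12), -0.58 with limma voom, -0.21 without PX 44, -0.24 without sham 74, -0.26 without PX 36 and -0.17 without PX 44, PX 65 and sham 46, and passed in none of these. Pcsk1, whose product it inhibits, had 664 CPM in sham and 712 CPM in PX and was not called (log2 fold change 0.10 ± 0.12 (SE), edgeR adjusted p = 0.558). Pcsk1 was also named after its values were seen.

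Vgf, on chromosome 12 from 22677607 to 22680630, had 100 counts over all 21 libraries, 48 in sham and 52 in PX. Its level was 0.127 to 2.08 CPM in sham, with a median of 0.382, and 0 to 1.44 CPM in PX, with a median of 0.566. The highest value was that of sham 46. PX 44 had a count of 0, which allows up to 0.259 CPM at a floor of 3 counts, for counting error only. In the fit without a filter the log2 fold change was 0.077 ± 0.49 (SE) (edgeR adjusted p = 0.932), so a difference between groups was not detectable at this depth.

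The authors' deposited table of limma results, with 13140 genes of which 4073 had an adjusted p under 0.05, listed the same 6 granins, and 0 of them were under 0.05. In that table the log2 fold change was 0.43 for Chgb (adjusted p = 0.184), -0.58 for Pcsk1n (adjusted p = 0.151) and -0.14 for Scg2 (adjusted p = 0.518). The values for Chga, Scg3 and Scg5 in the authors' deposited table were 0.00044, 0.076 and 0.049.

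As a share of all counts the granins together made up 0.404% ± 0.0845 (SD, n = 10) in sham and 0.352% ± 0.111 (SD, n = 11) in PX. The range was 0.301% to 0.516% in sham and 0.104% to 0.490% in PX, where PX 65, the library richest in acinar counts, was the lowest. With acinar marker counts taken out of the total, the share was 0.450% ± 0.0619 in sham and 0.427% ± 0.0912 in PX, with PX 65 at 0.206%. Per 100 counts of the 6 hormone genes there were 2.81 ± 0.685 granin counts in sham and 2.88 ± 0.722 in PX. PX 65, at 2.69, was close to the middle of its group by this last measure. The groups overlapped on all 3 measures, which were not tested.

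**Figure D2:**
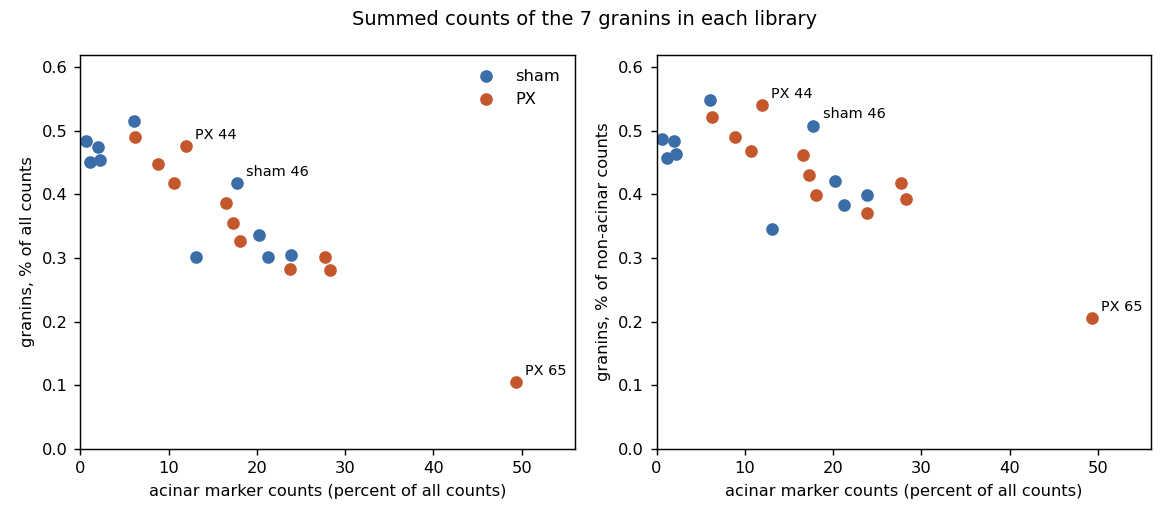
Share of counts taken by the 7 granins against the share taken by acinar markers, in percent, per library, over all counts and over counts without acinar markers. Points are single animals; PX 65 lies lowest, at 0.104% of all counts and 0.206% of counts without acinar markers.

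No granin was called for a relation to BG. The slope of log2 CPM on BG was fitted within each group with edgeR's quasi-likelihood test, over the same 13136 genes. Of all genes 0% were called within PX, 0% within sham and 0% for the difference of the slopes, and 1653, 106 and 145 genes had an unadjusted p under 0.05. DESeq2 called 25 genes within PX and 0 granins. Of the 6 granins, 1 had an unadjusted p under 0.05 within PX, Scg2.

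Scg2 fell by 0.14 ± 0.052 (SE) on the log2 scale per 10 units of BG within PX, unadjusted p = 0.0215 and edgeR adjusted p = 0.365, which does not pass. The 2 animals of highest BG, PX 65 (BG 174) and PX 41 (BG 156), had 744 and 1157 CPM, and PX 44, of the lowest BG (101), had 2303 CPM. Over the 11 PX animals Pearson's r was -0.628 (permutation p = 0.0411, adjusted over 14 relations 0.575) and Spearman's rho was -0.557 (permutation p = 0.0793, adjusted 0.793). Without PX 41 and PX 65, the animals farthest from the median BG, r was -0.235 and rho was -0.345. Both were weaker than over the 11 animals, and the range of BG was narrower. The fitted slope was -0.092 without PX 65 (unadjusted p = 0.241), -0.16 without PX 41 (unadjusted p = 0.0224) and -0.16 in the 8 PX animals of BG 121 or less (unadjusted p = 0.47). With the run of animal numbers as a term, an alternative added after seeing the data, it was -0.12, and in a fit that held the acinar score as a term it was -0.082.

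The slopes of the other granins within PX did not pass the test and differed in sign. They were -0.043 ± 0.043 (SE) for Chga, -0.086 ± 0.059 for Chgb, 0.028 ± 0.040 for Scg3, 0.066 ± 0.043 for Scg5 and -0.090 ± 0.11 for Pcsk1n, on the log2 scale per 10 units. Single libraries moved them: the slope of Chgb was -0.17 without PX 41 (unadjusted p = 0.0073, edgeR adjusted p = 0.137), -0.022 without PX 65 and -0.00056 in the 8 PX animals of BG 121 or less, that of Chga -0.074 and 0.037 without PX 41 and PX 65, and that of Pcsk1n -0.17 and 0.018. Within sham, where BG spanned a narrower range, the slopes were 0.094 ± 0.17 for Chga, 0.14 ± 0.37 for Chgb, 0.039 ± 0.13 for Scg2, 0.12 ± 0.10 for Scg3, 0.19 ± 0.15 for Scg5 and -0.23 ± 0.22 for Pcsk1n. The slope of Scg2 in PX minus that in sham was -0.17 ± 0.18 (unadjusted p = 0.363, edgeR adjusted p = 0.9998), so a difference between the groups' slopes was not shown for it.

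**Figure D3:**
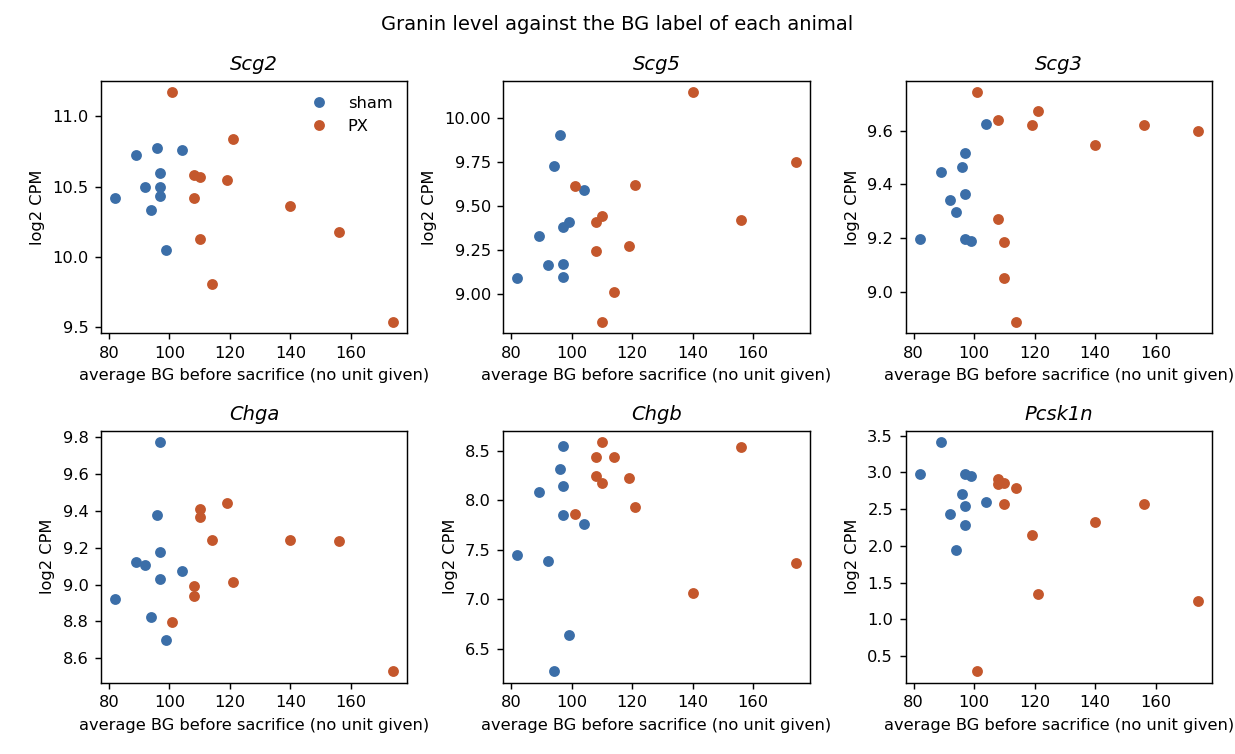
Log2 CPM of the granins against the BG label (no unit given), per animal, sham and PX. Within PX, Scg2 goes from 2303 CPM in PX 44 (BG 101) to 744 CPM in PX 65 (BG 174), and the BG ranges of the groups barely meet.

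How far the granins varied together within groups depended on the scaling, and the values that follow first are at TMM scaling. For the 21 pairs of members, Pearson's r was computed over 21 libraries from log2 CPM minus the group mean, with permutation within group and adjustment over the 21 pairs. The pairs passing the test were 2, both with Chga. For Chga and Chgb r was 0.648 (permutation p = 0.00203, adjusted 0.0213), rho was 0.582 (permutation p = 0.00663, adjusted 0.0648), and r was 0.538 without sham 46 and PX 65. For Chga and Vgf r was 0.735 (permutation p = 0.00039, adjusted 0.00819), rho was 0.666 (permutation p = 0.0016, adjusted 0.0336), and r was 0.617 without the same libraries; Vgf rests on 0 to 19 counts a library.

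Over both groups together, no pair of Scg2, Scg3 or Scg5 with Chga or Chgb passed at this scaling. Chga had an r of 0.19 with Scg2, -0.28 with Scg3 and -0.28 with Scg5, and none of these passed (permutation p = 0.427, 0.224 and 0.228, adjusted 0.472, 0.319 and 0.319). Scg3 and Scg5 had an r of 0.550 (permutation p = 0.0167, adjusted 0.0816), which was 0.316 without PX 37 and PX 58. The lowest value was that of Scg3 and Pcsk1n, at -0.46 (permutation p = 0.0725, adjusted 0.169). For this pair r was 0.20 in sham and -0.61 in PX. For Chgb, r was 0.67 in sham and 0.016 in PX with Scg2, and 0.37 and -0.43 with Scg3. With Scg5 it was -0.16 in sham and -0.74 in PX. The values within single groups were not tested.

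The number of pairs called depended on the scaling. With library totals in place of TMM factors 14 of 21 pairs passed, and with the 6 hormone genes' counts as library size 12 did, with the Chga pairs among them in both. The sign of r changed in 10 and in 7 pairs. With DESeq2's size factors and with acinar markers removed, the same 2 pairs passed. The alternatives for this result were added after seeing the data.

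**Figure D4:**
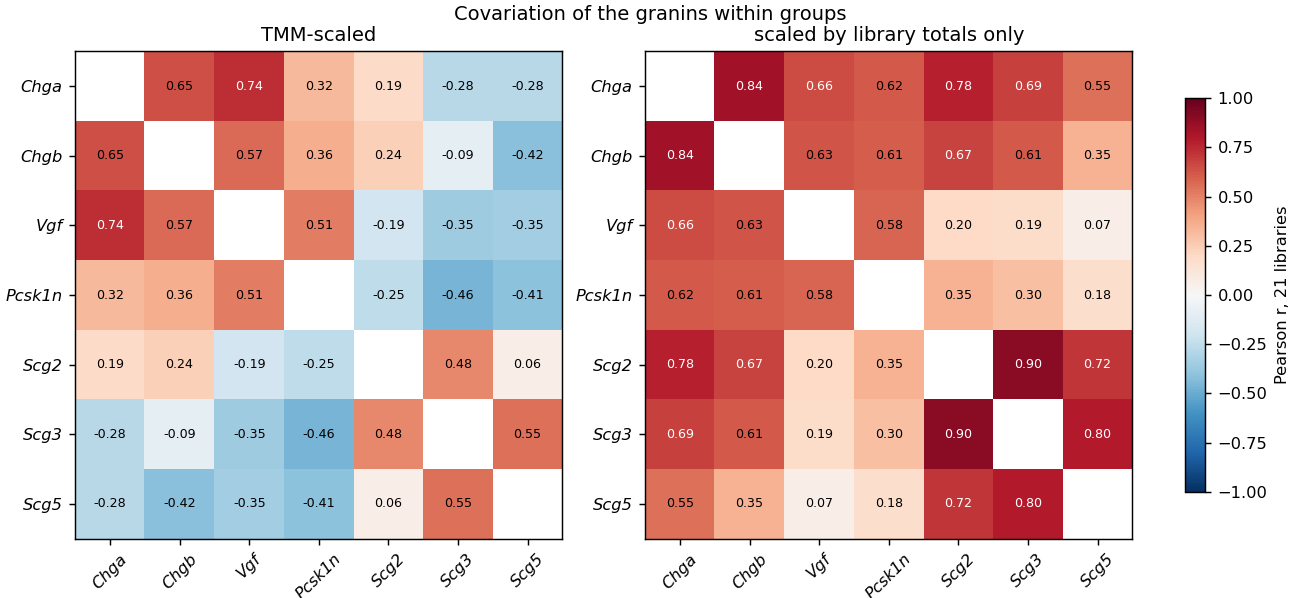
Pearson's r between the granins over 21 libraries, from log2 CPM minus the group mean, scaled by TMM factors and by library totals only. At TMM scaling r runs from -0.46 to 0.74, and with library totals all values are above 0, from 0.069 to 0.90.

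The genes whose pattern was most like that of each granin were ranked by r of log2 CPM minus the group mean over the same 21 libraries, among 8263 genes. For Chga they were Rundc1 (r = 0.877), Cltb (0.868) and Sbds (0.822), and Cltb encodes a clathrin light chain. For Chgb they were Cndp2 (0.938), Epcam (0.926), an epithelial adhesion molecule, and Fth1 (0.921), the ferritin heavy chain. Scg2 was closest to Map7d2 (0.921), Eid1 (0.921) and Ythdc1 (0.903). Scg3 was closest to Cltc (0.848), the clathrin heavy chain, Ctnnal1 (0.830) and Taf9b (0.792). Scg5 was closest to Chmp5 (0.926), a subunit of a membrane scission complex, Cops3 (0.908) and Eif4e (0.890), the cap-binding translation factor. Pcsk1n was closest to Irf2bpl (0.911), Rnf126 (0.902) and Vat1 (0.891). These values are the highest of many and carry no test. Depth and acinar content differed between the libraries, and their part in these values was not tested. None of these 18 genes was called between PX and sham.

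Genes listed for granule make-up, sorting, cargo and regulation were called in PX at shares near those of all genes. In the lists of processing enzymes, granule membrane proteins, biogenesis and sorting, regulators, and other peptide cargo, 52 of 59 genes were tested. Of these, 8 were higher in PX, 6 were lower and 38 were not called, beside 14.9% higher and 16.2% lower over all genes, so the counts are no result about these genes as a group. The median log2 fold change of the 52 was -0.066. In libraries of overlapping acinar score, 5 sham and 8 PX, 2 were higher and 2 lower. This alternative was added after seeing the data and also has fewer samples. Its 5 sham libraries were sham 46 to 50, a whole run of animal numbers, and sham 21 to 24 and 73 to 74 were left out. The parts of acinar score, run and sample number in calls lost at overlapping acinar scores were not tested.

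Of the 8 enzymes that process granule prohormones, 1 rose and 0 fell. Pam, which amidates peptides, ran from 1013 through 1535 to 1787 CPM in sham and from 1433 through 2184 to 3243 CPM in PX. Most PX animals were above all sham animals, and the log2 fold change was 0.61 ± 0.15 (SE) (edgeR adjusted p = 0.00309). The call was lost with library totals (0.39, adjusted p = 0.202), with hormone genes as library size (0.62, adjusted p = 0.0704) and in libraries of overlapping acinar score (0.77, adjusted p = 0.0598). Cpd, a carboxypeptidase, Qsox1, a sulfhydryl oxidase, and Ero1b, an oxidase of the endoplasmic reticulum, had log2 fold changes of -0.22, 0.62 and 0.23 and did not pass. Cpd passed without sham 46 (-0.22, edgeR adjusted p = 0.0419), with voom's quality weights (-0.29, adjusted p = 0.00209) and without PX 44, PX 65 and sham 46 (-0.28, edgeR adjusted p = 0.00392), and Qsox1 without PX 36 (0.76, adjusted p = 0.0385) or PX 44 (0.74, adjusted p = 0.0489). Without PX 65 alone, Qsox1 was at 0.30 and was not called.

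Among 12 tested granule membrane proteins, 1 rose and 2 fell. Slc18a1, a vesicular monoamine transporter, averaged 7.66 CPM in sham and 3.33 CPM in PX, with a log2 fold change of -1.19 ± 0.20 (SE) (edgeR adjusted p = 9.8e-05). Sv2a, a synaptic vesicle glycoprotein, fell by 0.42 ± 0.11 (SE), from 104 to 77.4 CPM (edgeR adjusted p = 0.00404), and Ptprn, a transmembrane granule protein and islet autoantigen, rose by 0.67 ± 0.18 (SE), from 973 to 1549 CPM (edgeR adjusted p = 0.00701). The calls of Sv2a and Ptprn were lost with hormone genes as library size (-0.38, adjusted p = 0.179, and 0.64, adjusted p = 0.116) and in libraries of overlapping acinar score (-0.34, adjusted p = 0.17, and 0.54, adjusted p = 0.273), and that of Ptprn also with library totals (0.45, adjusted p = 0.149). Slc30a8, the granule zinc transporter, had a log2 fold change of -0.35 ± 0.15 (SE) and did not pass (edgeR adjusted p = 0.0777). It passed with limma voom (-0.41, adjusted p = 0.0287), with voom's quality weights (-0.43, adjusted p = 0.0017), without PX 44 (-0.42, edgeR adjusted p = 0.00758) and without PX 44, PX 65 and sham 46 (-0.37, edgeR adjusted p = 0.0134).

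Of 14 tested genes of granule biogenesis and sorting, 0 rose and 1 fell. Cadps, which primes dense-core granules for release, averaged 346 ± 58.4 CPM (SD, n = 10) in sham and 246 ± 51.0 CPM (SD, n = 11) in PX, with a log2 fold change of -0.49 ± 0.12 (SE) (edgeR adjusted p = 0.00324). Its paralog Cadps2 had a log2 fold change of 0.56 ± 0.23 (SE) and did not pass (edgeR adjusted p = 0.0713). It passed with DESeq2 (0.60, adjusted p = 0.037), with voom's quality weights (0.54, adjusted p = 0.014), without PX 44, PX 65 and sham 46 (0.53, edgeR adjusted p = 0.0168) and without any one of PX 36, PX 37, PX 41, PX 44 and sham 46 (0.63 to 0.71). Without PX 65 alone, Cadps2 was at 0.33 and was not called. The call of Cadps was lost at overlapping acinar scores (-0.39, adjusted p = 0.236). Vps53 and Hid1, of the sorting machinery, were at -0.25 and 0.20 and did not pass. Hid1 passed at 0.34 without sham 46 (edgeR adjusted p = 0.014) and at 0.31 without PX 44 (adjusted p = 0.0237), and Vps53 at -0.30 without sham 49 (adjusted p = 0.0417). With quality weights Hid1 (0.32, adjusted p = 0.00155) and Vps53 (-0.33, adjusted p = 0.00808) both passed, and Hid1 also without PX 44, PX 65 and sham 46 (0.39, edgeR adjusted p = 9.5e-04).

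Of 7 tested regulators, 2 rose and 2 fell; Insm1 and Srrm4 were not tested. Rest, the repressor that keeps neuronal and endocrine genes, granins among them, off in other cell types, was 1.99 to 4.26 CPM in sham, with a median of 2.65, and 4.24 to 16.9 CPM in PX, with a median of 8.28. The groups met only at the lowest PX and the highest sham animal, and the log2 fold change was 1.65 ± 0.22 (SE) (edgeR adjusted p = 9.5e-06). Macrophage and mesenchymal markers were higher in the same libraries: the summed level of the 15 macrophage markers was 49.5 to 160 CPM in sham and 218 to 2008 CPM in PX, and that of the 12 mesenchymal markers 497 to 1341 and 1379 to 3948 CPM. Most tested duct and endothelial markers were higher too, as given above. The part of these cell types in the Rest result was not tested. Crem, a cyclic AMP responsive factor, rose by 0.91 ± 0.22 (SE), from 33.4 to 63.1 CPM (edgeR adjusted p = 0.00275). Rcor1, a partner of REST, fell by 0.36 ± 0.12 (SE) (edgeR adjusted p = 0.0248), and Atf1, which binds cyclic AMP response elements, fell by 0.25 ± 0.091 (SE) (edgeR adjusted p = 0.0414). Leaving out 1 library ended the call of Rcor1 in 9 of 21 fits (without sham 22, 24, 46, 73 or 74, or PX 36, 38, 41 or 62) and that of Atf1 in 17 of 21, all but those without PX 44 or sham 48, 49 or 50. The call of Rcor1 was also lost in 6 of 14 alternatives, with adjusted p from 0.0538 with DESeq2 size factors to 0.488 at overlapping acinar scores, and among them the acinar covariate (0.212), hormone genes as library size (0.395) and the 8 PX animals of BG 121 or less (0.148). That of Atf1 was lost in 8 of 14, with adjusted p from 0.0641 with library totals to 0.534 with hormone genes, DESeq2 (0.0986) and upper-quartile factors (0.0864) among them. The call of Crem was lost at overlapping acinar scores only (0.79, adjusted p = 0.101), and that of Rest in none of the 14.

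Of 11 tested genes in the list of other peptide cargo, 4 rose and 1 fell. The 4 include Nucb1, a calcium-binding protein. Cartpt, the precursor of the CART peptides, was 4.38 to 23.1 CPM in sham, with a median of 13.8, and 20.03 to 292 CPM in PX, with a median of 59.9. The groups overlapped slightly and the PX animals differed widely; the log2 fold change was 2.76 ± 0.47 (SE) (edgeR adjusted p = 1.7e-04). Nucb2, the precursor of nesfatin, rose by 0.76 ± 0.15 (SE) (edgeR adjusted p = 4.6e-04), and its relative Nucb1, a calcium-binding protein, by 0.34 ± 0.097 (SE) (edgeR adjusted p = 0.00937). The call of Nucb1 was lost with library totals (0.12, adjusted p = 0.634), with hormone genes as library size (0.37, adjusted p = 0.209) and at overlapping acinar scores (0.43, adjusted p = 0.0676), where that of Nucb2 was lost too (0.59, adjusted p = 0.106). Iapp, islet amyloid polypeptide, named after its values were seen, rose by 0.60 ± 0.23 (SE) (edgeR adjusted p = 0.0452). Sst, the hormone of delta cells, fell by 1.21 ± 0.17 (SE), from 992 to 430 CPM (edgeR adjusted p = 1.3e-05). It is 1 of the 2 delta cell markers counted as lower above.

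**Figure D5:**
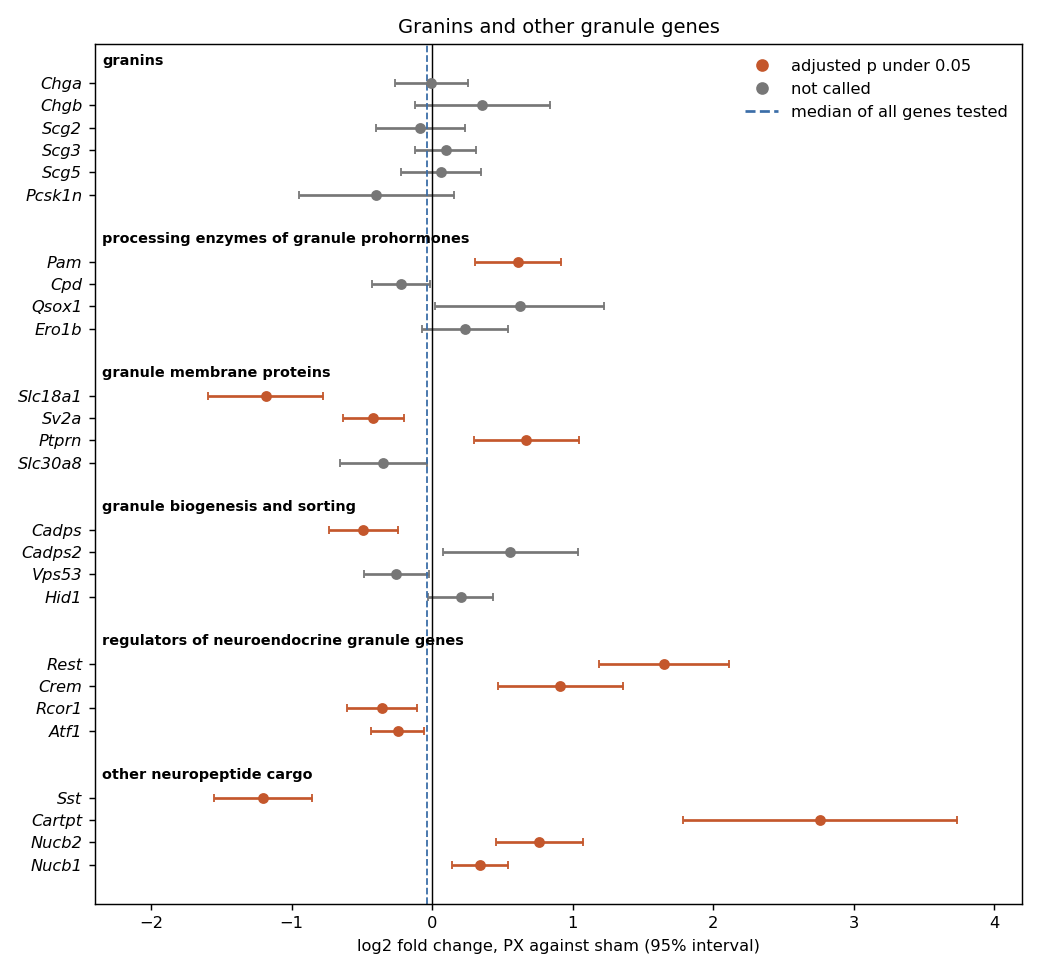
Log2 fold change of PX against sham with 95% intervals for the 6 tested granins and the named granule pathway genes. The granin intervals all cross 0, from Pcsk1n at -0.40 to Chgb at 0.36, while Cartpt (2.76) and Rest (1.65) lie highest and Sst (-1.21) lowest.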

How the data were processed

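Raw read counts per gene of 21 islet libraries were deposited by the authors, with a gene length column and a table of limma results (log2 fold change, linear fold ratio, p-value and adjusted p-value). Per the submitters' processing notes the tools were FastQC, Subread with featureCounts, and limma; for their versions and the build, nothing is given in the sources used here. Groups and BG values come from the labels. With edgeR 4.0.16 (R 4.3.3), genes were kept by filterByExpr (minimum count 10, minimum total 15; 13136 of 28914 genes), scaled by TMM and tested by a robust quasi-likelihood fit of 10 sham and 11 PX libraries, two-sided, with Benjamini-Hochberg adjustment and a threshold of 0.05. In the table, 2 gene names stood on 2 rows each and were kept apart. BG slopes were fitted within groups and as an interaction. Log2 CPM used a prior count of 2, log2 ratios of RPKM a pseudocount of 0.1, and permutations 100000 resamples (scipy 1.17.1). DESeq2 1.42.0 and limma 3.58.1 were alternatives. The scripts were tested on simulated data. Totals of 4001908 to 13187959 counts set the precision; reads carry no molecular identifiers, so floors cover counting error only.

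No 2 libraries agreed within sampling noise: the closest, sham 73 and sham 74, had a chi-square of 4.43 per degree of freedom. Libraries are treated as replicates because the labels give each an animal number. The members and the gene lists were chosen with earlier results of these data known. The text names the 7 members, up to 4 genes of smallest p per pathway list and Rest, and the 3 genes of highest r per member among those of at least 10 CPM on average, leaving out names that start with LOC, RGD or AABR. Acinar, macrophage and mesenchymal scores are means of log2 CPM over their markers. Motifs were searched on both strands of 33469 RefSeq promoters of GRCr8.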

Additional observations from a re-analysis of the deposited data

How the results depend on the processing

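No paired analysis was possible because the replicate numbers are animal numbers that the groups do not share. Of 14 alternatives, 12 left the count of granins higher in PX at 0; limma voom with quality weights and the libraries without PX 44, PX 65 and sham 46 each gave 1, Chgb. No alternative called a granin lower, and no alternative or left-out library called a granin for BG. Of 52 list genes, 3 were lower with hormone genes as library size, 16 with quality weights and 2 at overlapping acinar scores; 4 were higher with library totals, 4 with hormone genes and 2 at overlapping scores. Over all genes, 346 were lower with hormone genes as library size, 3692 with quality weights, 922 with the acinar covariate, 957 with PX limited to its 8 animals up to BG 121 and 185 at overlapping scores; 990 were higher with library totals, 1195 with hormone genes, 1285 with the acinar covariate and 717 at overlapping scores. Leaving out 1 library gave 1304 to 2258 lower, with 1304 to 1380 without sham 22, 24, 73 or 74 or PX 41. Lower genes made up 52.0% of calls in the reported fit, 69.2% with library totals, 43.0% with DESeq2 size factors, 22.5% with hormone genes, 41.8% with the acinar covariate, 37.5% in the 8 PX animals and 20.5% at overlapping scores. Library totals moved the median log2 fold change of all genes to -0.28 and that of the granins to -0.21. For BG within PX, all genes called numbered 1 with hormone genes, 6 with no filter, 25 with DESeq2, 13 with quality weights, and 0 to 1 leaving out 1 library. Pairs called were 14 with library totals and 12 with hormone genes.

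None of the values that turned sign was past the threshold. The log2 fold change of Chga was 0.041 with DESeq2 size factors, 0.043 with upper-quartile factors, 0.041 with DESeq2, 0.00045 with limma voom, 0.081 with quality weights, 0.029 with the acinar covariate, 0.079 in the 8 PX animals, 0.23 without the 3 libraries, 0.052 at overlapping scores, and -0.052 to 0.14 leaving out 1 library. That of Scg2 was 0.12 with the acinar covariate, 0.078 in the 8 PX animals and 0.19 at overlapping scores; of Scg3 -0.14 with library totals; of Scg5 -0.20 with library totals, -0.031 in the 8 PX animals and -0.023 to 0.18 leaving out 1 library. Qsox1 was at -0.12 with the acinar covariate and -0.090 at overlapping scores, Cadps2 at -0.054 there and Hid1 at -0.018 with library totals. Slopes per 10 BG within PX were 0.19 for Chga, -0.0096 for Scg3 and -0.033 for Scg5 in the 8 PX animals, and -0.062 for Scg3 and -0.029 for Scg5 with library totals; leaving out 1 library gave -0.074 to 0.037 for Chga and -0.17 to 0.018 for Pcsk1n, the highest without PX 65 in both. Within sham they were -0.0037 for Chgb with the acinar covariate, and for Scg2 -0.049 with hormone genes, -0.093 with the acinar covariate and -0.061 with the run of animal numbers; leaving out 1 library gave -0.011 to 0.16 for Chga, -0.013 to 0.28 for Chgb and -0.067 to 0.10 for Scg2. The slope of Pcsk1n in PX minus sham was -0.0089 with library totals. The cause was not tested for these changes. Depth limits Vgf and Pcsk1n most.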
